A study of Mus musculus with 16 samples.

Results

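The BCL2 family genes described here are the members of a list of 10 (Bcl2, Bcl2l1, Mcl1, Bax, Bak1, Bcl2l11, Bid, Bbc3, Pmaip1 and Bmf) that have a row, matched by gene name, in a table of 13474 genes. Of the 10, 9 have a row, and Pmaip1, which encodes the BH3-only protein NOXA, is not analysed here. They were followed in 16 RNA-seq libraries of cell lines from mouse acute lymphoblastic leukaemia of the T lineage (T-ALL). The 11 drug-resistant derivatives were 3 resistant to cytarabine (lines 2883, 2869 and 7298), 3 to vincristine (2883, 2696 and 2869), 2 to etoposide (2883 and 2696), 2 to prednisone (2883 and 2641) and 1 to methotrexate (2883). Each was set beside the parental culture of its own line, which the labels give as treated with PBS. Of the 5 lines, 2883, 2696, 2641 and 2869 carry the genotype Mcm2cre/cre in every culture, and line 7298 is SCL/LMO1 transgenic. The labelled tissue is thymus, all cultures were grown in DMEM with fetal bovine serum, and all libraries carry 1 batch label. The labels used here give no dose, no length of treatment and no statement on whether a derivative is clonal. There is 1 library per culture, so a p-value below rests on the spread among cultures that the fit leaves. The fit accounts for cell line and drug or, over all derivatives together, for cell line and resistance only. Derivatives of 1 line share its parental library, so counts of derivatives above or below it are not counts of independent comparisons.

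The BCL2 family decides whether the mitochondrial outer membrane is opened during intrinsic apoptosis. Guardians (BCL2, BCL-XL from Bcl2l1, and MCL1) hold the membrane closed, effectors (BAX and BAK) form the pores, and BH3-only proteins (BIM from Bcl2l11, BID, PUMA from Bbc3, and BMF) bind guardians or activate effectors when a cell is stressed. In the thymus, Mcl1 and Bcl2 support survival of developing T cells at different stages, Bcl2l1 is strongly expressed at the double-positive stage, and BIM is needed for deletion of self-reactive thymocytes. Glucocorticoids such as prednisone kill lymphoid cells largely through this pathway.

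Values are given as CPM, reads per gene scaled to the library total, obtained from the deposited FPKM, and a level is compared between genes only per kilobase of exon. The depth implied by the low values was 14066000 to 18956000 reads in the 11 resistant libraries and 12142000 to 13498000 in the 5 parental ones, so depth separates these groups completely and its part in any difference between them was not tested. All 16 listed T lineage markers had a row and together held 4856 to 8785 CPM per library, although Cd4 reached 1 CPM in 6 libraries only and Cd5 in 10. Of the other markers, 1 of 5 B cell genes (Cd79b, at most 13.2 CPM), 1 of 5 myeloid genes (Itgam, 2.74 to 33.1 CPM), 1 of 6 stromal and epithelial genes (Pdgfrb, 0.122 to 433 CPM) and 0 of 4 erythroid genes had a row. Mcm2, lowered by the Mcm2cre allele, was at 54.0 to 187 CPM in all 14 Mcm2cre/cre cultures, against 446 and 320 CPM in the cytarabine-resistant and parental libraries of line 7298. Lmo1 had 222 and 270 CPM in the same pair of line 7298 and 0 reads elsewhere. In bulk RNA, fewer cells expressing a gene and less RNA per cell cannot be told apart.

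Bcl2, Bcl2l1 and Bmf differed most between lines among the 9 members, and their promoters are shown because those levels are the main subject below. The windows run from 250 bases before to 50 bases after the RefSeq transcription start, on GRCm38.p6, the assembly behind mm10. They lie at chr1:106714241-106714540 for Bcl2, chr2:152831679-152831978 for Bcl2l1 and chr2:118549637-118549936 for Bmf. All 3 genes are on the minus strand, and each sequence is written 5′ to 3′ on the gene's strand. Capitals mark the GC box (GGGCGG, on either strand) and the E-box (CANNTG).
Bcl2: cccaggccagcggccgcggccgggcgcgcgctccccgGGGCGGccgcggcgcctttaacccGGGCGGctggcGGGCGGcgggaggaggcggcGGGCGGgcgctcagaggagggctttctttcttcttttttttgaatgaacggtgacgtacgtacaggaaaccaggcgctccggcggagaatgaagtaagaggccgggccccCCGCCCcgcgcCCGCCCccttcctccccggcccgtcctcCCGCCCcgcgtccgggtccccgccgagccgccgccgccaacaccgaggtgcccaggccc
Bcl2l1: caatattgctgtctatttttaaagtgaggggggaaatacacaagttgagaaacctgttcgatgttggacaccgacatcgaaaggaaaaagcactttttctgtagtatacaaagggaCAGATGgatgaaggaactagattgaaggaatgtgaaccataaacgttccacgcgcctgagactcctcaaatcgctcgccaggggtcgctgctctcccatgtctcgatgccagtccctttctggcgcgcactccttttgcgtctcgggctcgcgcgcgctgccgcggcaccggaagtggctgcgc
Bmf: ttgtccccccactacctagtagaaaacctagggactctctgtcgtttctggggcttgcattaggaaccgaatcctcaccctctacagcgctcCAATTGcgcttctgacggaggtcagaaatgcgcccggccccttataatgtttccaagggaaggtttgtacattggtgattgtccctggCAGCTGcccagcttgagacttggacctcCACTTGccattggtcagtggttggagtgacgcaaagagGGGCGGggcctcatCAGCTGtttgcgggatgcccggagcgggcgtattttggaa
The Bcl2 window has 76.0% G and C, 44 CpG and 7 GC boxes, and no E-box. The Bcl2l1 window has 52.3% G and C, 22 CpG, 1 E-box and no GC box, and the Bmf window has 55.3% G and C, 13 CpG, 4 E-boxes and 1 GC box. Over all 32851 mouse promoter windows of 300 bases, the median was 52.7% G and C and 7 CpG, 35.7% held a GC box and 72.3% held an E-box. For each member only the 1 window nearest to the annotated gene start was scanned. Bcl2l1, Bbc3 and Bmf have 3 windows each and Bcl2l11 has 2, and the Bbc3 transcription start used lies 1190 bases from the annotated one. The motif AGAACA, a glucocorticoid response half-site, was found in none of the 9 members' scanned windows and in 19.0% of all windows. The FOXO core GTAAACA was found in the Bcl2l11 window only among the 9 and in 3.65% of all windows, and the RUNX core TGTGGT in the Bak1 window only and in 16.8% of all. These matches describe letters in short windows and say nothing of binding.

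**Figure D1:**
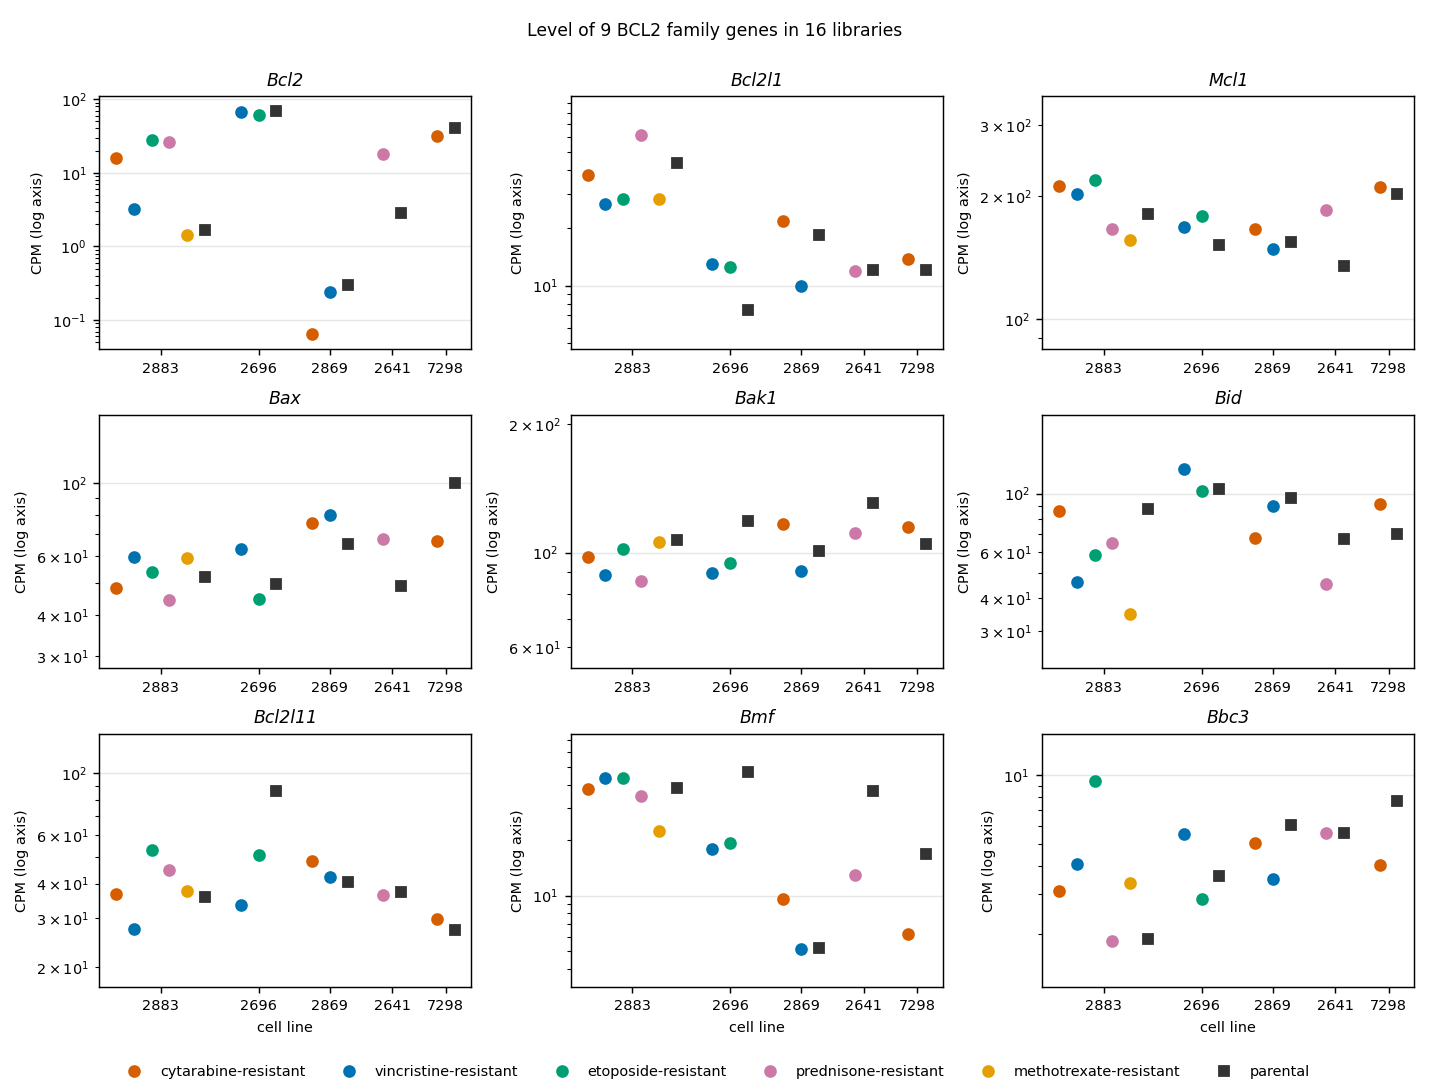
Level of each of the 9 BCL2 family genes, in CPM on a logarithmic axis, in 16 libraries grouped by cell line. Each symbol is 1 library, with circles for resistant derivatives coloured by drug and squares for the parental library of the same line at the right of each group. Bcl2 runs from 0.065 CPM to 68.2 CPM, whereas Mcl1 stays between 135 and 220.1 CPM.

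Among the guardians, Bcl2 had the widest range of any member (chr1:106538178-106714274, minus strand, mm10). In line 2883 it was at 16.1 CPM in the cytarabine-resistant, 3.23 in the vincristine-resistant, 27.6 in the etoposide-resistant, 25.8 in the prednisone-resistant and 1.43 in the methotrexate-resistant library, against 1.66 CPM in the parental library. Thus 3 of the 5 derivatives of this line were many times above the parental culture, and the methotrexate derivative was within counting error of it. In line 2641 the prednisone derivative had 17.7 CPM and the parental culture 2.87 CPM. Line 2696 was high throughout, with 66.3 CPM after vincristine and 61.0 after etoposide, against 68.2 CPM in the parental library. Line 7298 had 31.2 CPM in its cytarabine derivative and 40.8 CPM in its parental library. Line 2869 had almost no Bcl2, with 1 read in the cytarabine, 4 in the vincristine and 4 in the parental library.

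Expressed as a ratio to the parental library, Bcl2 was at 16.8 times the parental level in etoposide-resistant 2883 (95% exact interval 10.7 to 27.8, from 394 and 20 reads), 15.7 times in prednisone-resistant 2883 (10.0 to 25.9) and 9.78 times in cytarabine-resistant 2883 (6.21 to 16.3). The vincristine derivative of 2883 had 1.95 times the parental level (1.14 to 3.48), and the methotrexate derivative 0.863 times (0.441 to 1.69). These 5 ratios share 1 parental library. In prednisone-resistant 2641, whose parental library is its own, the ratio was 6.20 (4.42 to 8.92). In lines 2696 and 7298, where Bcl2 was already high, the ratios were 0.972 for vincristine (0.889 to 1.06), 0.894 for etoposide (0.817 to 0.979) and 0.765 for cytarabine (0.677 to 0.864). These intervals cover counting error only. Pdgfrb is the 1 of 6 listed stromal and epithelial genes with a row, so stromal cells cannot be told from leukaemia cells by it. It was at 214, 2.95 and 40.3 CPM in the cytarabine, etoposide and prednisone derivatives of 2883 and 11.2 CPM in their parental library. It was thus above the parental level in 2 of these 3 libraries and below it in the third. In the vincristine and methotrexate derivatives of 2883, without a large Bcl2 ratio, Pdgfrb was at 433 and 17.5 CPM. In line 2641 it was at 304 CPM after prednisone and 229 CPM in the parental library. The part of Pdgfrb in the Bcl2 values was not tested.

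Both prednisone derivatives thus had more Bcl2 RNA than their parental cultures, and the limma estimate was a log2 fold change of 2.17 ± 0.75 (SE, 2 of 2 derivatives higher, 95% interval 0.48 to 3.86). It did not pass the threshold of 0.05 after Benjamini-Hochberg adjustment over all 13261 genes tested (limma adjusted p = 0.526). In these fits the level of a line draws on its derivatives as well as its parental library. A limma estimate is therefore not the mean difference to the parental library, which here was 3.34 in 2883 and 2.28 in 2641 taken singly. An estimate can even oppose the counts, as for Bcl2l11 with cytarabine, at -0.06 with 3 of 3 derivatives higher. The estimates for Bcl2 were 1.28 ± 0.74 for etoposide (1 of 2 higher), 0.52 ± 0.63 for cytarabine (1 of 3 higher) and 0.05 ± 0.63 for vincristine (1 of 3 higher). Over all 11 derivatives the estimate was 0.77 ± 0.61, with 5 higher and 6 lower. A test of whether the 4 drug terms differ gave a limma adjusted p of 0.579 for Bcl2, so a drug-specific difference was not shown. In the same prednisone derivatives the glucocorticoid receptor gene Nr3c1, through which prednisone acts, was at 18.5 CPM in 2883 and 0.533 CPM in 2641, against 327 and 638 CPM in their parental libraries. Leaving out the parental library of 2883 lowered the prednisone estimate of Bcl2 to 1.61, and leaving out the block for cell line lowered it to 1.44 (limma adjusted p = 0.437 and 0.990, within 0.437 to 0.9998 over all alternatives).

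Bcl2l1 (chr2:152780668-152831728, minus strand), the gene of BCL-XL, was highest in line 2883. There it was at 37.7 CPM after cytarabine, 26.7 after vincristine, 28.2 after etoposide, 60.8 after prednisone and 28.4 after methotrexate, against 43.8 CPM in the parental library. The prednisone derivative was the 1 library of this line above the parental level, at 1.39 times it (1.25 to 1.54), and the vincristine, etoposide and methotrexate derivatives had 0.610 to 0.647 of it. In line 2696 both derivatives were higher, with 12.9 CPM after vincristine and 12.5 after etoposide, against 7.47 CPM in the parental library. In line 2869 the cytarabine derivative had 21.7 CPM and the vincristine derivative 9.95, against 18.4 CPM in the parental library. Lines 2641 and 7298 lay at 11.9 CPM after prednisone and 13.8 after cytarabine, against 12.0 and 12.1 CPM in their parental libraries. No ratio left the range 0.541 to 1.73, and vincristine resistance went with a lower level in 2 lines and a higher one in the third.

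Mcl1 (chr3:95658788-95663176, plus strand), whose protein is short-lived and needed continuously in T-lineage cells, was the steadiest guardian. Its level was 149 to 220.1 CPM in the resistant libraries (median 179), against 135 to 203 CPM in the parental ones (median 155). The ratio to the parental library ran from 0.862 in methotrexate-resistant 2883 to 1.37 in prednisone-resistant 2641, and 8 of 11 derivatives were above their parental level. The estimate over all derivatives was 0.14 ± 0.10 on the log2 scale (limma adjusted p = 0.732). These ranges overlap over most of their width.

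Per kilobase of exon, Mcl1 supplied most of the summed RNA of Mcl1, Bcl2l1 and Bcl2 in every library. The guardian gene Bcl2l2, described below, is not in this sum. The Mcl1 share of the sum was lowest, at 75.2%, in prednisone-resistant 2883, where Bcl2l1 held 20.4%, and highest, at 95.2%, in vincristine-resistant 2869. Bcl2 held at most 13.9% of it, in the parental library of 2696, and 4.10%, 4.35% and 2.44% in the etoposide, prednisone and cytarabine derivatives of 2883, against 0.288% in their parental library. In line 2641 it held 3.30% in the prednisone derivative and 0.737% in the parental culture. The large Bcl2 ratios of these 4 derivatives are therefore ratios of a minor part of the summed RNA of Mcl1, Bcl2l1 and Bcl2. The summed level itself was 58.7 CPM per kilobase in prednisone-resistant 2641 and 42.5 in its parental library, a gap made mainly by Mcl1.

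**Figure D2:**
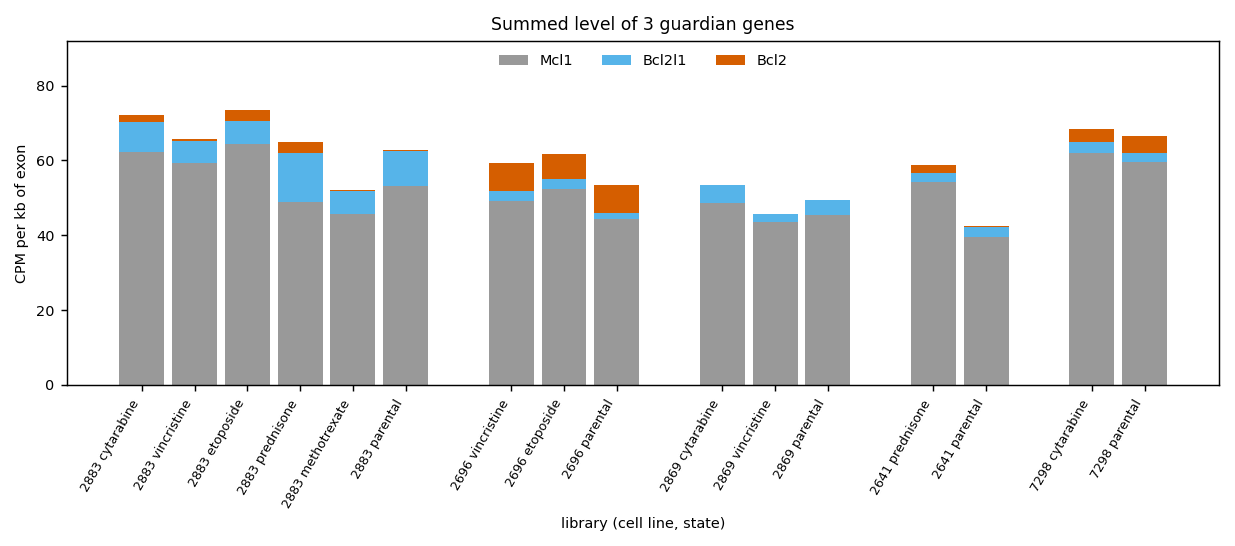
Summed level of Mcl1, Bcl2l1 and Bcl2 in CPM per kilobase of exon, 1 bar per library, grouped by cell line with the parental library at the right of each group. Mcl1 forms 75.2% to 95.2% of every bar, and the Bcl2 segment is tallest in line 2696.

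The effectors varied little. Bak1 (chr17:27019810-27029009, minus strand) was at 85.9 to 117 CPM in resistant libraries (median 97.6), against 101 to 131 CPM in parental ones (median 107), and 9 of 11 derivatives were lower than their parental library. The lower level was seen in 3 of 3 vincristine, 2 of 2 etoposide and 2 of 2 prednisone derivatives. All derivatives of line 2883 were lower and share 1 parental library. Their ratios for etoposide, 0.952 (0.883 to 1.03), and methotrexate, 0.988 (0.916 to 1.06), were within counting error of 1. The differences were small, with ratios of 0.758 to 1.15 and estimates of -0.25 ± 0.12 for vincristine and -0.26 ± 0.15 for prednisone (limma adjusted p = 0.413 and 0.631). Bax (chr7:45461697-45466898, minus strand), a target of p53, was at 44.3 to 80.2 CPM in resistant and 48.8 to 99.9 CPM in parental libraries. Its highest value, 99.9 CPM, was in the parental library of 7298, and the cytarabine derivative of that line had 67.0 CPM, a ratio of 0.671 (0.619 to 0.727). At the other end, prednisone-resistant 2641 had 67.8 CPM, against 48.8 CPM in its parental library, a ratio of 1.39 (1.26 to 1.53). Vincristine derivatives were higher in 3 of 3 lines, with an estimate of 0.27 ± 0.19 (limma adjusted p = 0.575).

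Among the BH3-only genes, Bmf (chr2:118528757-118549687, minus strand), whose protein is held at the cytoskeleton in healthy cells, had the widest range. In line 2696 it was at 17.9 CPM after vincristine and 19.3 after etoposide, against 46.8 CPM in the parental library. In line 2641 the prednisone derivative had 13.0 CPM and the parental culture 36.7, and in line 7298 the cytarabine derivative had 6.17 CPM and the parental culture 16.8. These 4 derivatives, from 3 lines and resistant to 4 different drugs, had 0.353 to 0.413 of the parental level. Both ratios of line 2696 share 1 parental library, which had the highest Bmf value of the 16 libraries. Line 2883 gave another picture, with 37.6 CPM after cytarabine, 43.2 after vincristine, 43.1 after etoposide, 34.8 after prednisone and 22.5 after methotrexate, against 38.1 CPM in the parental library. Only the methotrexate derivative of that line was well below its parental level, at 0.590 of it (0.510 to 0.683). In line 2869, where Bmf was low, the cytarabine derivative had 9.57 CPM and the vincristine derivative 5.12, against 5.19 CPM in the parental library. The cytarabine ratio there was 1.84 (1.38 to 2.48), opposite in direction to that in line 7298.

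Over all 11 derivatives the estimate for Bmf was -0.65 ± 0.27 on the log2 scale, with 8 lower and 3 higher (95% interval -1.23 to -0.07), and it did not pass the threshold (limma adjusted p = 0.565). The 4 drug estimates were -0.42 ± 0.39 for cytarabine, -0.62 ± 0.39 for vincristine, -0.58 ± 0.46 for etoposide and -0.93 ± 0.47 for prednisone (limma adjusted p = 0.743, 0.532, 0.715 and 0.610). The derivatives of 1 drug did not always move as a group, as the cytarabine ratios of 0.988 in 2883, 1.84 in 2869 and 0.367 in 7298 show. Both prednisone derivatives were lower but by different amounts, with ratios of 0.914 (0.808 to 1.03) in 2883 and 0.353 in 2641.

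Bcl2l11 (chr2:128126038-128162547, plus strand), the gene of BIM, was at 27.5 to 52.7 CPM in resistant libraries (median 37.5), against 27.1 to 86.6 CPM in parental ones (median 37.2). The value of 86.6 CPM was that of the parental library of 2696, and its vincristine and etoposide derivatives had 33.5 and 50.8 CPM. Their ratios, 0.387 (0.349 to 0.428) and 0.587 (0.536 to 0.641), share that library. Etoposide-resistant 2883 went the other way, with 52.7 CPM against 35.7 CPM in its parental library, a ratio of 1.48 (1.31 to 1.67). In prednisone resistance, the setting in which BIM is best known as a mediator of killing, Bcl2l11 was at 44.7 CPM in 2883 and 36.4 CPM in 2641, against 35.7 and 37.2 CPM in the parental libraries. The prednisone estimate was 0.07 ± 0.30 (95% interval -0.61 to 0.75), which leaves room for a difference of up to 0.75 on the log2 scale.

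Bid (chr6:120891930-120916853, minus strand), which links death receptors to mitochondria, was lower than in the parental library in 9 of 11 derivatives. Its lowest value was 34.9 CPM in methotrexate-resistant 2883, against 87.4 CPM in the parental library, a ratio of 0.399 (0.358 to 0.445). The vincristine derivative of 2883 had 46.1 CPM, a ratio of 0.528 (0.478 to 0.582), while vincristine-resistant 2696 had the highest level of all, 124 CPM, against 104 CPM in its parental library. The estimate over all derivatives was -0.24 ± 0.20 (limma adjusted p = 0.759). Bbc3 (chr7:16308393-16318205, plus strand), the gene of the p53 target PUMA, was low everywhere, at 1.87 to 9.47 CPM. It was highest in etoposide-resistant 2883, with 9.47 CPM against 1.90 CPM in the parental library, a ratio of 5.00 (3.20 to 8.15, from 135 and 23 reads). The other etoposide derivative, of line 2696, had 2.86 CPM, against 3.59 CPM in its parental library. Bbc3 was lowest relative to its parental library in cytarabine-resistant 7298, with 4.02 CPM against 7.70 CPM, a ratio of 0.522 (0.379 to 0.717).

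Across genes, the order of median level per kilobase of exon was Mcl1 (50.8 CPM per kilobase), Bak1 (43.0), Bax (37.8), Bid (21.9), Bcl2l11 (4.65), Bmf (3.98), Bcl2l1 (3.51), Bbc3 (1.90) and Bcl2 (1.85). The ranges over libraries of Mcl1, Bak1 and Bax overlap (39.6 to 64.4, 35.7 to 54.4 and 28.1 to 63.4), as do those of the 5 lowest genes, so neighbours within each of these sets are not ordered beyond their spread. Bid, at 9.83 to 34.9, overlaps both sets. The level of Bcl2 relative to its binding partner Bcl2l11, per kilobase of exon, spanned 0.00118 in cytarabine-resistant 2869 to 1.74 in vincristine-resistant 2696. In line 2883 that quotient was 0.385, 0.103, 0.459, 0.507 and 0.0334 in the cytarabine, vincristine, etoposide, prednisone and methotrexate derivatives, against 0.0407 in the parental library. In line 2641 it was 0.428 after prednisone and 0.0676 in the parental culture.

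**Figure D3:**
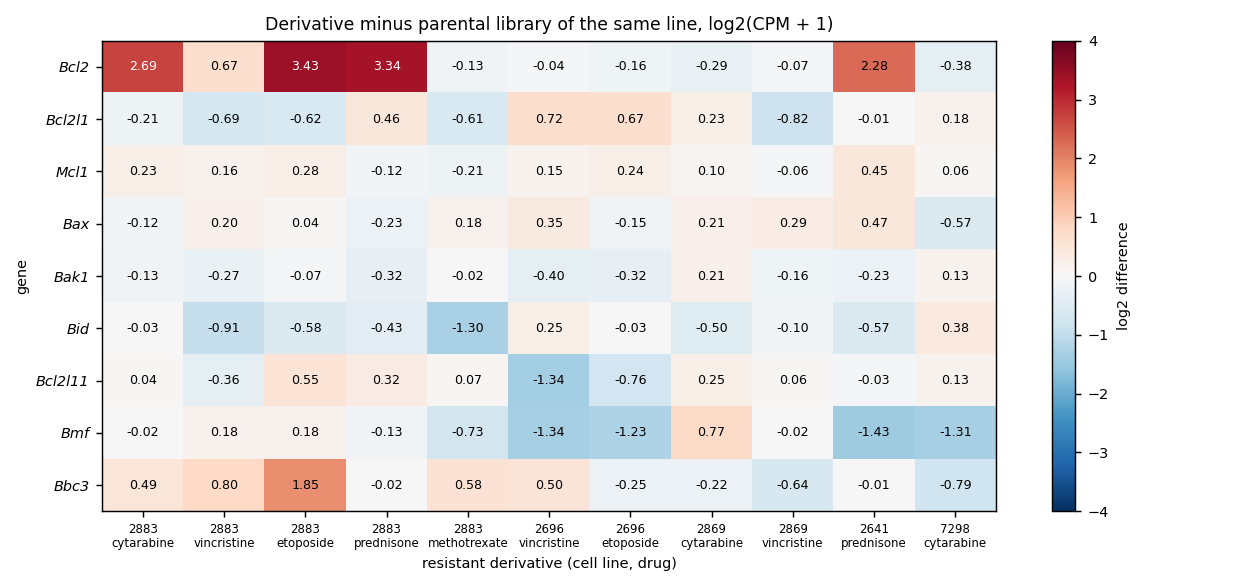
Difference in log2(CPM + 1) between each of the 11 derivatives and the parental library of its line, for 9 genes in rows, with the value printed in each cell and red for higher in the derivative. The Bcl2 row holds the 4 highest values, 2.28 to 3.43, and the Bmf row the lowest, -1.43.

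Set against all genes, the family moved about as often as the rest of the transcriptome. A difference of at least 1 in log2(CPM + 1) between derivative and parental library was seen in 11 of 99 gene and derivative pairs of the members (11.1%), and in 11.0% of such pairs over all tested genes. Bcl2 and Bmf had 4 of these each, Bcl2l11, Bid and Bbc3 had 1 each, and Bcl2l1, Mcl1, Bax and Bak1 had 0. A gene past this size in at least 4 derivatives is not rare, since 12.1% of tested genes were. The 4 Bcl2 differences were large for these libraries, each matched or exceeded by 0.528% of tested genes in prednisone-resistant 2883, 1.10% in prednisone-resistant 2641, 1.11% in etoposide-resistant 2883 and 1.85% in cytarabine-resistant 2883. For Bmf the corresponding shares were 2.44% in cytarabine-resistant 7298, 3.79% in prednisone-resistant 2641, 4.72% in etoposide-resistant 2696 and 7.09% in vincristine-resistant 2696.

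The share of all tested genes past that size differed by derivative and gives the scale for each member. For cytarabine it was 15.3% in 2883 (1 member, Bcl2, higher), 9.12% in 2869 (0 members) and 5.08% in 7298 (1 member, Bmf, lower). For vincristine it was 13.8% in 2883 (0 members), 12.3% in 2696 (Bcl2l11 and Bmf, lower) and 10.8% in 2869 (0 members). For etoposide it was 18.7% in 2883 (Bcl2 and Bbc3, higher) and 6.85% in 2696 (Bmf, lower). For prednisone it was 10.3% in 2883 (Bcl2, higher) and 8.44% in 2641 (Bcl2 higher and Bmf lower). In methotrexate-resistant 2883 it was 10.8%, with 1 member, Bid, lower, and there is no replicate for this drug. Between 0 and 2 of 9 members per derivative is near these shares.

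In the limma comparisons, 0 of 9 members were called for cytarabine, vincristine, etoposide, prednisone or all resistant derivatives together, and 0 differed between drugs. The background was the same, with 0 of 13261 genes called in each of these 6 tests (0.0%). The numbers of genes at an unadjusted p under 0.05 were 1249 for cytarabine, 1727 for vincristine, 1151 for etoposide, 1122 for prednisone, 1105 for all derivatives and 1222 for the difference between drugs, and members among them were Bcl2 for prednisone and Bmf for all derivatives. With 2 or 3 derivatives per drug and 6 residual degrees of freedom, intervals were wide: those of Bcl2 spanned about -0.39 to 2.95 for etoposide and -0.89 to 1.94 for cytarabine. Intervals of Mcl1 and Bak1 were narrow by comparison, at -0.08 to 0.37 and -0.35 to 0.09 over all derivatives.

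**Figure D4:**
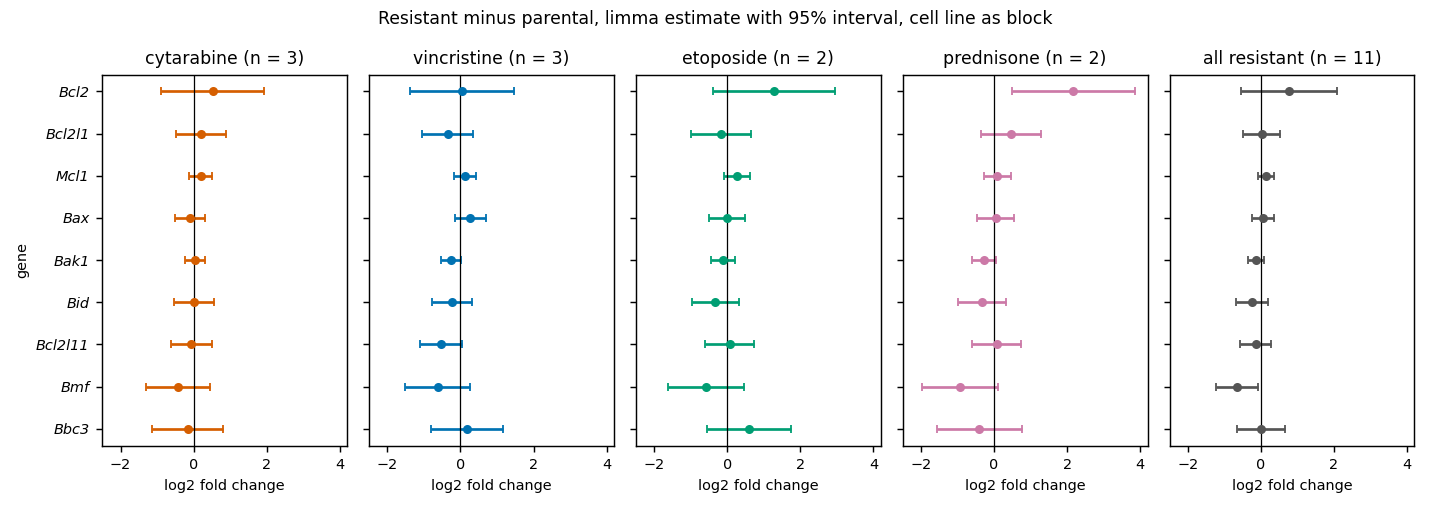
Limma estimate of the log2 fold change of resistant over parental cultures, with its 95% interval, for 9 genes and 5 comparisons. The fit is on log2(CPM + 1) with cell line as a block, and n is the number of derivatives. The level of a line in the fit draws on its derivatives too, so an estimate is not the mean paired difference. For Bcl2 the prednisone interval, 0.48 to 3.86, lies above 0 and for Bmf that of all derivatives, -1.23 to -0.07, lies below 0, but no estimate passed the threshold after adjustment over all genes.

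Calls were made for the cell line term and for no drug term. The 2 kinds of term differ in design. In the line test the cultures of a line, derivatives included, are its repeats, while a drug term rests on 2 or 3 derivatives. The F test for differences between the 5 lines called 3 of 9 members, Bcl2 (limma adjusted p = 0.00253), Bmf (0.00823) and Bcl2l1 (0.00980), against 3490 of 13261 genes (26.3%), so the family's share is near the background. With no adjustment for drug, differences between lines made up 77.6% of the variance of Bcl2 over libraries, 80.2% of that of Bcl2l1 and 76.2% of that of Bmf. The median over all tested genes was 48.1%. Bbc3, at 21.1%, Bak1, at 36.4%, and Bcl2l11, at 41.5%, were below that median. Bcl2 was at 61.0 to 68.2 CPM in line 2696 (3 libraries) and at most 0.304 CPM in line 2869 (3 libraries). Bcl2l1 was at 26.7 to 60.8 CPM in line 2883 (6 libraries) and at 7.47 to 21.7 CPM elsewhere. Bmf was at 22.5 to 43.2 CPM in line 2883, reached 46.8 CPM in the parental library of 2696 and was at 5.12 to 9.57 CPM in line 2869. The 3 calls were kept in every alternative fit in which the gene was tested, also with both libraries of line 7298 left out.

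The genes whose levels followed these 3 members most closely over the 16 libraries were, for Bcl2, Etv5 (Pearson r = 0.932), Cmya5 (0.906) and Gata3 (0.905). Gata3 encodes a T-lineage transcription factor and ranged from 45.9 to 416 CPM. For Bmf they were Zfp27 (r = 0.927), Crebl2 (0.872) and AU022252 (0.869), and for Bcl2l1 they were Frmd5 (0.953), Mcts2 (0.928) and Fbxo2 (0.926). Mcts2 (chr2:152687035-152687946) lies close to Bcl2l1, whereas Frmd5 (chr2:121545529-121807087) is on the same chromosome but far from it. The 16 libraries come from 5 lines and share them, so they are not independent points, and r, taken on log2(CPM + 1), is given as a description.

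Other genes of the pathway came from 8 lists with 56 tested genes. In the 5 comparisons with parental cultures and the test between drugs, 0 of 56 were called. In the line test 17 of 56 were called (30.4%, against 26.3% of all genes). Of 5 further guardians, 1 had a row, Bcl2l2, the gene of BCL-W, singled out here after its values were seen. In line 2883 it was at 16.5 CPM after cytarabine, 17.9 after etoposide and 5.82 after prednisone, but at 2 reads in the methotrexate and 0 in the vincristine derivative, against 2 reads in the parental library. These are the 3 derivatives of that line in which Bcl2 was also many times higher, and the ratios, 100.3 (27.5 to 832), 108.6 (29.8 to 901) and 35.3 (9.52 to 296), share that 1 parental library. In line 2696 Bcl2l2 was at 0.670 CPM after vincristine and 16.8 after etoposide, against 14.4 CPM in the parental library, a pattern that Bcl2 did not follow. In line 2869, with at most 4 Bcl2 reads in any library, Bcl2l2 was at 14.1 CPM after cytarabine and 5.30 after vincristine, against 1.46 CPM in the parental library, ratios of 9.52 (6.03 to 15.9) and 3.57 (2.18 to 6.12). In line 2641 it was at 16.0 CPM after prednisone and 18.3 CPM in the parental culture, a ratio of 0.874 (0.736 to 1.04), beside a Bcl2 ratio of 6.20. It was not called in any of the limma comparisons or in the line test. Exons of Bcl2l2 overlap those of Gm20521 on the same strand, so its reads may be shared.

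Among other family genes, Bcl2l14 was at 28.1 and 63.9 CPM in the etoposide derivatives of 2883 and 2696, against 3.63 and 48.6 CPM in their parental libraries, with an estimate of 1.56 ± 0.54 (limma adjusted p = 0.557). A higher level was not limited to etoposide. Vincristine ratios were 3.25, 0.905 and 7.12 in 2883, 2696 and 2869, and cytarabine ratios 3.15, 0.980 and 0.776 in 2883, 2869 and 7298. Ratios for prednisone were 1.41 and 0.831 in 2883 and 2641, and that for methotrexate was 1.75. Bnip3l, the gene of the mitophagy receptor NIX, was at 146, 47.6 and 87.2 CPM in the cytarabine derivatives of 2883, 2869 and 7298, against 140.5, 91.5 and 262 CPM in the parental libraries, with an estimate of -0.87 ± 0.26 (limma adjusted p = 0.494). A lower level was not limited to cytarabine. Bnip3l ratios were 1.03, 0.517 and 0.577 for vincristine in 2883, 2696 and 2869. They were 1.08 and 0.583 for prednisone in 2883 and 2641, 0.981 and 0.810 for etoposide in 2883 and 2696, and 2.195 for methotrexate. Both genes passed in the line test (limma adjusted p = 0.00701 and 0.0344), as did Apaf1, the scaffold of the apoptosome, Htra2, Endog and Aifm1, whose proteins leave the mitochondria in dying cells, and Vdac2 of 6 outer membrane genes.

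Downstream of the mitochondria, Xiap, an inhibitor of apoptosis, had 0 reads in prednisone-resistant 2883, against 1848 reads in its parental library, at most 0.00115 of the parental level when 0 is set at 3 reads per library. In prednisone-resistant 2641 it was at 114 CPM, against 181 CPM in the parental culture, and the prednisone estimate of -4.52 ± 1.09 was not called (limma adjusted p = 0.499). Fas, the death receptor, was low or absent in several derivatives. It had 0 reads in etoposide-resistant 2883 and 2.33 CPM in etoposide-resistant 2696, against 3.63 and 16.4 CPM in the parental libraries, with an estimate of -2.16 ± 0.55 (limma adjusted p = 0.557). Its vincristine estimate was -1.83 ± 0.47, with 1.51, 1.21 and 2.74 CPM in resistant 2883, 2696 and 2869, against 3.63, 16.4 and 9.49 CPM in the parental cultures (limma adjusted p = 0.227). Of the 7 tested death receptor genes, Fas, Tnfrsf1a, Cflar and Ripk3 were called in the line test.

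Among regulators of these genes, Trp53, which drives Bax and Bbc3, was higher than in the parental library in 3 of 3 vincristine derivatives (107, 345 and 148 CPM in 2883, 2696 and 2869, against 87.7, 137 and 108 CPM). It was also higher in 3 of 3 cytarabine derivatives (119.7, 152 and 196 CPM in 2883, 2869 and 7298, against 87.7, 108 and 136 CPM). The estimates were 0.65 ± 0.18 and 0.55 ± 0.18, and neither was called (limma adjusted p = 0.246 and 0.496). A higher level was not limited to these drugs. Trp53 ratios were 1.45 and 1.27 for prednisone in 2883 and 2641, 0.974 and 1.19 for etoposide in 2883 and 2696, and 0.956 for methotrexate. In the same order of lines as above, Bbc3 ratios were 2.13, 1.53 and 0.581 for vincristine and 1.63, 0.836 and 0.522 for cytarabine. Those of Bax were 1.15, 1.28 and 1.23 for vincristine and 0.922, 1.16 and 0.671 for cytarabine. Trp53, Stat5b and Hif1a of 10 tested regulators, and Dusp6 of 9 tested genes that control MCL1 or BIM turnover, were called in the line test.

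Exons of 4 members overlap another annotated gene: Bcl2 with D630008O14Rik, Bak1 with Ggnbp1 and Bid with Bcl2l13 on the opposite strand, and Bax with Gm45808 on the same strand. Ggnbp1 reached 4.60 CPM and Bcl2l13 151 CPM. Whether counting used strand is not given in the sources used here, and the part of Bcl2l13 reads in the Bid level was not tested. Bcl2l13 was at 61.6 CPM in methotrexate-resistant 2883, against 123 CPM in its parental library, the same derivative in which Bid was lowest. In prednisone-resistant 2883 the 2 genes went opposite ways. Bcl2l13 was at 149 CPM there, above the parental level, and Bid at 64.7 CPM, against 87.4 CPM in the parental library.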

How the data were processed

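RNA from 16 cultures was sequenced with Illumina Stranded mRNA Prep libraries, per the labels. Per the submitters' processing notes, the software was cutadapt, STAR and Partek and the build mm10. Versions, annotation and strand setting of the counting were not given in the sources used here. The authors deposited FPKM for 13474 genes. In these deposited FPKM values the length is the whole gene span with introns, in all 13474 rows, and 0.1 read per gene was added. CPM was obtained as FPKM times span, and reads from CPM at the depth implied by genes without reads. Between 0.5 and 200 reads, 70.5% to 75.7% of values lay within 0.05 of a whole read, too few for a count test. CPM was used in place of FPKM because span scaling puts Bcl2 and other long genes below an FPKM filter. Exon lengths are from GENCODE vM21, in which 13080 of 13201 matched symbols had the table's start and end. Promoter windows are from RefSeq, GRCm38.p6; all 9 members matched.

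The test was limma (version 3.58.1, R 4.3.3) with lmFit and a trended eBayes on log2(CPM + 1) for 13261 genes with at least 1 CPM in at least 2 libraries, with terms for line and drug (6 residual degrees of freedom) or line and resistance (10), two-sided, Benjamini-Hochberg threshold 0.05. Fold changes on this scale understate changes of low genes. The script was tested on simulated data. Ratios to the parental library carry 95% Clopper-Pearson intervals, and 0 reads were set at 3. Line is the block, since derivative and parental culture carry the same line in their labels; deviations from the mean correlated best with the own parental library in 11 of 11 derivatives (r from 0.15 to 0.84, across genes).

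The members and gene lists were chosen with earlier results of these data known. Genes named are all members, pathway genes called in a comparison, and where none was called the 2 with the smallest p; some genes that this rule selects are not reported here; likeness is the 3 genes with the highest Pearson r for the 3 members of widest range. Alternatives were no line block, log2(FPKM + 1), no filter, a pseudocount of 0.25, scaling by median of ratios, each library left out and, added after seeing the data, both libraries of line 7298 left out.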

Additional observations from a re-analysis of the deposited data

Results flagged for a closer look

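Bcl2l11 in the parental library of line 2696 stood apart from the other parental libraries. It was at 86.6 CPM there, and the next highest parental value was 40.5 CPM, so the gap was 0.776 of the whole range of 5 libraries, above the critical value of 0.71 of Dixon's test. Among 9 members tested in this way this was the 1 group marked, and chance marks about 1 in 20 groups. Both ratios of line 2696 for Bcl2l11 rest on this library. No member moved in opposite directions between drugs with every derivative of each drug on its own side, in 54 pairs of drugs examined over the 9 members.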

How the results depend on the processing

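The 0 calls of members in the drug comparisons and the 3 calls in the line test held in every alternative in which the gene was tested, and the log2(FPKM + 1) fit tested 6 of the 9 members (not Bcl2, Bcl2l1 or Bbc3). The count of all genes called, 0 in each comparison with parental cultures, changed as follows. It was 4 for vincristine with no replicate block and 2 for prednisone on log2(FPKM + 1), and the line test called 1905 genes on that scale, where 9309 genes were tested. With both libraries of line 7298 left out it was 1 for cytarabine, 1 for vincristine and 1 for the difference between drugs. Leaving out 1 library at a time gave 0 to 1 genes for cytarabine (1 without either library of 7298), 0 to 9 for vincristine (9 without parental 2696, 1 without vincristine 2883 or either library of 7298), 0 to 33 for etoposide (33 without etoposide 2696, 19 without etoposide 2883, 3 without parental 2696) and 0 to 11 for prednisone (11 without either library of 2641, 3 without prednisone 2883, 2 without parental 2883, 1 without either etoposide library). For the difference between drugs it gave 0 to 10 (10 without either library of 2641, 8 without etoposide 2696, 3 without etoposide 2883 or parental 2696, 1 without prednisone 2883 or either library of 7298). Where such a fit leaves a drug with 1 derivative, that library is assumed to vary like the others. The causes were not tested.

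Of 975 alternative estimates of members, 894 kept their sign and 81 changed it, none of them called. With no replicate block, which ignores the pairing by line, the estimates that changed sign were Bax 0.041 and Bak1 -0.034 for cytarabine, Bcl2 -0.23 and Bbc3 -0.075 for vincristine, Bcl2l1 0.26 and Bmf 0.33 for etoposide, Bax -0.15 and Bcl2l11 -0.050 for prednisone, and Bax -0.034 and Bbc3 -0.13 over all derivatives; it ended or made no call of a member. With both libraries of 7298 left out they were Bax 0.11, Bak1 -0.0075 and Bbc3 0.10 for cytarabine, Bax 0.048 for etoposide and Bcl2l1 -0.0083 over all derivatives. Bid for cytarabine was 0.0018 on log2(FPKM + 1), and Bax for etoposide was 0.026 with median-of-ratios scaling. Leaving out 1 library gave, for cytarabine, Bcl2 -0.27 to 0.91, Bax -0.25 to 0.11, Bak1 -0.029 to 0.14, Bcl2l11 -0.23 to 0.10, Bid -0.16 to 0.29 and Bbc3 -0.39 to 0.10. For vincristine it gave Bcl2 -0.46 to 0.49, Bid -0.43 to 0.11 and Bbc3 -0.18 to 0.60, and for etoposide Bcl2 -0.14 to 2.51, Bcl2l1 -0.69 to 0.14, Bax -0.19 to 0.14, Bcl2l11 -0.36 to 0.52 and Bbc3 -0.43 to 1.49. For prednisone it gave Bcl2l1 -0.013 to 0.82, Mcl1 -0.18 to 0.45, Bax -0.27 to 0.47 and Bcl2l11 -0.031 to 0.22. Over all derivatives it gave Bcl2l1 -0.16 to 0.15, Bax -0.015 to 0.18, Bcl2l11 -0.23 to 0.10 and Bbc3 -0.26 to 0.15. Under median-of-ratios scaling 98 of 99 ratios stayed within their counting interval. Depth limits Bcl2 in line 2869, with at most 4 reads, and Bbc3 throughout.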

Other observations

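Among the pathway genes called in the line test, Ripk3, the kinase of necroptosis, was nearly absent from line 7298, with 0 reads in the cytarabine derivative and 0.0872 CPM in the parental culture. It was at 34.3, 22.3, 21.3, 14.3 and 3.99 CPM in the cytarabine, vincristine, etoposide, prednisone and methotrexate derivatives of line 2883, against 18.2 CPM in the parental library. In line 2696, in which Bcl2 was highest, it was at 0.428 CPM after vincristine and 0.122 CPM after etoposide, against 3.21 CPM in the parental library.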
